A study of Mus musculus with 4 samples.

Results

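Antisense long noncoding RNA genes were examined in the crypt transcriptome of mice that lack CREPT in the intestinal epithelium. The count table held 2774 genes of the GENCODE M21 biotype antisense, of 53845 rows in all, and the 773 antisense genes with at least 20 counts summed over the 4 libraries were taken. The choice used the summed counts and not the difference between the groups. At the edge of this rule, 22 genes had exactly 20 counts and were taken, and 19 antisense genes with 19 counts were not. The sense partner of an antisense gene was the protein-coding gene on the opposite strand whose gene body overlapped it longest. In this way 721 antisense genes were paired with 695 distinct partners, 99 of them had more than 1 candidate partner, and 52 had no protein-coding gene on the opposite strand within their body. The count table had a row for the partner in 720 of the 721 pairs.

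Crypts, the pits of the epithelium in which stem cells reside, were taken from C57BL/6 mice, freed with EDTA, and total RNA was sequenced. The WT group (wildtype genotype) and the Vil-CREPTKO group had 2 libraries each, and no treatment or age is given in the labels. In Vil-CREPTKO mice, Cre under the villin promoter acts on a floxed allele of Rprd1b, the gene for CREPT, and exon 3 lies between the loxP sites. Villin is expressed by epithelial cells, so other cells of a crypt preparation keep the gene. The study describes the libraries as biological replicates. Every p-value below rests on the spread between 2 libraries a group, with the spread of each gene drawn towards that of other genes.

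An antisense RNA is transcribed from the strand opposite to another gene. Many start close to the start of that gene and run the other way, from a shared promoter region at which RNA polymerase II loads in both directions, and most of these RNAs are short-lived and scarce. Others lie within the gene or meet its far end, and a few, such as Airn, are known to silence the genes they overlap by being transcribed across them. CREPT binds the tail of RNA polymerase II and is known as a cofactor of transcription.

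The 721 pairs were sorted by arrangement. In 183 pairs the starts overlapped (head to head), in 159 the ends overlapped (tail to tail), in 350 the antisense gene lay within the body of its partner, and in 29 it spanned the whole partner. Exons of the antisense gene and its partner shared bases in 492 pairs. The strand setting used in counting is not stated, so it is not known whether reads from such shared bases were told apart by strand. Every level of these pairs carries that limit.

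Start regions of 6 antisense genes are shown because the genes are described below and because the head to head arrangement, in which the largest group difference was seen, is defined at the start. RefSeq promoter windows (250 bases before to 50 bases after an annotated start, GRCm38.p6) matched 332 of the 773 antisense genes by symbol, and for 247 of these the RefSeq start lay within 500 bases of the GENCODE start. The windows run 5′ to 3′ on the strand of the antisense gene, and capitals mark the dinucleotide CG. Bases annotated as untranslated region of a coding transcript were left out, which removed 128 bases for 1700008J07Rik and 157 bases for 1700052K11Rik. The stretches are chr11:3648765-3649064 (minus strand) for Tug1, chr7:127512820-127512991 (minus strand) for 1700008J07Rik, chr11:105181384-105181526 (minus strand) for 1700052K11Rik, chr17:12741061-12741360 (plus strand) for Airn, chr11:99416993-99417292 (plus strand) for A830036E02Rik and chr2:158091748-158092047 (minus strand) for 2010009K17Rik. The RefSeq start of Tug1 lay 859 bases, and that of A830036E02Rik 287 bases, from the GENCODE start. Tug1 was added to those shown after its values were seen.
Tug1: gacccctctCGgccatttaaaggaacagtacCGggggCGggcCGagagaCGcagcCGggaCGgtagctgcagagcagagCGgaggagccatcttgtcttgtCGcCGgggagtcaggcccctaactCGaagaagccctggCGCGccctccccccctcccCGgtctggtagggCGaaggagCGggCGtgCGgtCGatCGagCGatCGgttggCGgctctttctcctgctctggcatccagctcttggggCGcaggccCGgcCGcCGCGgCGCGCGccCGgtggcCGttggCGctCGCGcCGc
1700008J07Rik: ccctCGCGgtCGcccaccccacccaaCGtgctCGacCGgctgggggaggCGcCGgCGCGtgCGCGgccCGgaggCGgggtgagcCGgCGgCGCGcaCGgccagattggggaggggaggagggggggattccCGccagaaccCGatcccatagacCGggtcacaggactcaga
1700052K11Rik: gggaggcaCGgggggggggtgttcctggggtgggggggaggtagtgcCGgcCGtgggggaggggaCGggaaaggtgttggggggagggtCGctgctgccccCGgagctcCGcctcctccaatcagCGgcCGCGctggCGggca
Airn: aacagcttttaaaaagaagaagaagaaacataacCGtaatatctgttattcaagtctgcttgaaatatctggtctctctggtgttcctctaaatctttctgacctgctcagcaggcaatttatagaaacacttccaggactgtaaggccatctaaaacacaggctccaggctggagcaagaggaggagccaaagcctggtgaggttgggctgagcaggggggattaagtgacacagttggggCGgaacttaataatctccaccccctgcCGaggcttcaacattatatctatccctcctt
A830036E02Rik: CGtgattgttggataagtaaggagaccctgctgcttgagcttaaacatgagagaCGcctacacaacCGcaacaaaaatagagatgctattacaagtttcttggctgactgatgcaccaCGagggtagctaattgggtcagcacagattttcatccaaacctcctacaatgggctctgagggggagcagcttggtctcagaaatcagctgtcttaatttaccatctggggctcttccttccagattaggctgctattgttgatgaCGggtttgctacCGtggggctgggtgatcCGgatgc
2010009K17Rik: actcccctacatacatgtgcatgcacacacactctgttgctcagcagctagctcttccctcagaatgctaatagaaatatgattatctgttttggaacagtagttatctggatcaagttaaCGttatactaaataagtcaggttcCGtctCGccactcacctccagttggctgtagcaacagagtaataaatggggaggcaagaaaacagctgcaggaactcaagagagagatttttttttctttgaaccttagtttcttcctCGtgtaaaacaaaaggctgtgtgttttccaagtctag

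The first 3 of these windows were dense in CG, and the other 3 were not. The whole 300-base window held 37 CG in Tug1, 26 in 1700008J07Rik and 29 in 1700052K11Rik, against 3 in Airn, 7 in A830036E02Rik and 4 in 2010009K17Rik. Over the 332 matched windows the median was 8, and over all 32851 windows of the table it was 7. The 83 matched head to head genes had a median of 14 and the 80 tail to tail genes also had 14, while the 130 genes within a partner had 5. The letters TATAAA, searched on both strands and not overlapping CG, occurred in 29 of the 332 windows (8.73%), Airn among them, and in 13.6% of all windows.

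The libraries held 47737448 and 49369315 counts in WT and 47241049 and 48266388 in Vil-CREPTKO, and the share of antisense genes was 0.117% and 0.0964% in WT compared with 0.0850% and 0.0841% in Vil-CREPTKO. Their sum fell from 56010 and 47575 counts to 40152 and 40568 counts. Summed markers of the epithelium (12 genes, none at 0) were at 13623 to 14893 CPM (counts scaled to the library total, after TMM scaling) in every library. Immune markers (10 genes, none at 0) summed to 181 to 253 CPM in WT and 149 to 194 CPM in Vil-CREPTKO, and stromal markers (8 genes, none at 0) to at most 18.4 CPM in WT and at most 30.5 CPM in Vil-CREPTKO. Smooth muscle markers (6 genes, none at 0) summed to 0.784 to 0.874 CPM in WT and 0.591 to 0.713 CPM in Vil-CREPTKO, and enteric neural markers (6 genes, 1 at 0) to 2.43 to 3.56 CPM and 2.53 to 3.03 CPM. Their part in the results was not tested, and fewer cells of a type and less RNA per cell cannot be told apart. The share of mitochondrial genes was 6.93% and 6.75% in WT compared with 10.2% and 7.62% in Vil-CREPTKO. Xist was at 863 CPM in WT replicate 2 and at 0.299 to 0.529 CPM in the other 3 libraries, and 3 of the 773 antisense genes lie on the X chromosome. By this marker of female cells, WT replicate 2 came from a female and the other libraries from males. Values given without WT replicate 1 then set a female WT library against male Vil-CREPTKO libraries, and sex and library cannot be told apart there.

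Antisense genes were scarce transcripts. Their counts summed over the 4 libraries had a median of 77. Per kilobase of exon their level had a median of 0.334 CPM, against 3.24 CPM over all genes tested. Of the 773, 591 passed the filter on low counts that every gene tested had passed, so the minimums of the 2 sets are unlike. Within a pair, the level of the antisense gene per kilobase had a median of 5.48% of that of its partner, and over the 720 pairs the levels were loosely related (Spearman's rho 0.26, as a description, since both come from the same libraries). The most abundant was Brip1os, with 84.8 and 108 CPM in WT compared with 80.3 and 74.7 in Vil-CREPTKO, and Tug1 was close to it.

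The log2 ratio of Vil-CREPTKO to WT, the difference of the mean log2 CPM with a prior count of 2, was defined for every antisense gene. It was below 0 in 438 of the 773 genes, with a median of -0.095, against -0.0061 over the 17504 genes tested. This median rested on WT replicate 1, in which antisense genes were high, and was 0.014 without that library and -0.30 without WT replicate 2. Over the 591 antisense genes that passed the filter on low counts, the median log2 fold change was -0.12, against -0.0060 over all genes tested. The partners had a median log2 ratio of -0.0029 over 720 pairs, with 362 below 0. Other noncoding classes, taken by the same count minimum, had medians of -0.073 (605 lincRNA genes), -0.33 (76 genes of the biotype bidirectional promoter lncRNA), -0.011 (293 processed transcript genes), 0.047 (94 sense intronic genes) and 0.13 (734 genes of the biotype TEC).

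The lowest median of the 4 arrangements was that of the head to head genes, a class singled out after the values of all classes were seen. Their median log2 ratio was -0.33 and 126 of 183 were below 0. Their partners had a median of -0.025, with 102 of 183 below 0, and the antisense gene had the lower log2 ratio in 119 of the 183 pairs. The median over tail to tail genes was -0.070 (85 of 159 below 0), over genes within a partner -0.012 (176 of 350) and over genes that span a partner -0.042 (16 of 29). The contrast moved with the WT libraries. Without WT replicate 2 the medians were -0.38 for head to head, -0.33 for tail to tail and -0.23 for genes within a partner, and without WT replicate 1 they were -0.25, 0.065 and 0.16. No set test was run, so whether the classes differ beyond the spread among genes was not tested.

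**Figure D1:**
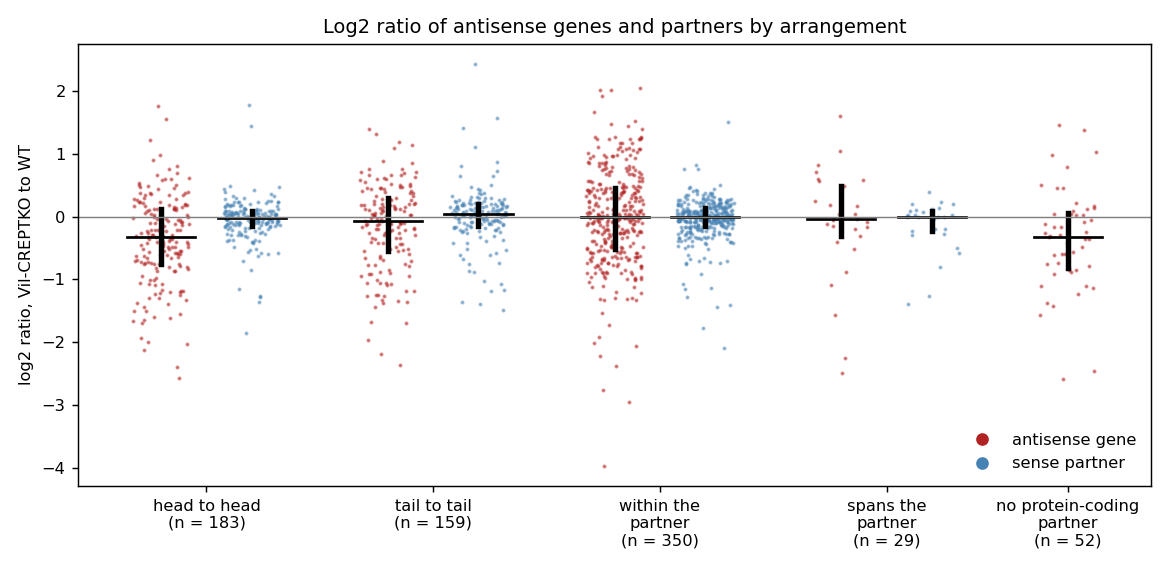
Each point is the log2 ratio of Vil-CREPTKO to WT (vertical axis, log2 scale) of 1 antisense gene (red) or 1 sense partner (blue), sorted along the horizontal axis by the arrangement of the pair, with the median as a line and the quartiles as a bar. The median of the antisense genes was -0.33 for the head to head genes and -0.32 for the genes without a protein-coding partner, and between -0.070 and -0.012 for the other classes.

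Library medians of the head to head genes were -0.62 and -0.76 log2 CPM in WT compared with -1.13 and -1.03 in Vil-CREPTKO. Summed over the 183 genes, the level was 376 and 361 CPM in WT compared with 270 and 256 in Vil-CREPTKO. Much of this fall came from Tug1 and 0610005C13Rik. Tug1 was at 105 and 108 CPM in WT compared with 64.0 and 61.7 in Vil-CREPTKO. For 0610005C13Rik the values were 44.7 and 42.9 CPM compared with 28.0 and 18.4, so the sum does not stand for the whole class. The genes within a partner were instead spread most within WT, with -1.14 and -1.71 log2 CPM, and their Vil-CREPTKO medians of -1.29 and -1.44 log2 CPM lay between those values. Tail to tail genes had -0.71 and -1.03 log2 CPM in WT compared with -1.06 and -1.03 in Vil-CREPTKO, so that WT replicate 1 alone stood above the rest. Both WT medians were above both Vil-CREPTKO medians also for genes that span a partner (-0.86 and -1.03 against -1.13 and -1.29 log2 CPM), for genes without a protein-coding partner (-1.21 and -1.53 against -1.71 and -1.61) and for all genes tested (3.60 and 3.56 against 3.46 and 3.49), and such a separation was not particular to the head to head genes.

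**Figure D2:**
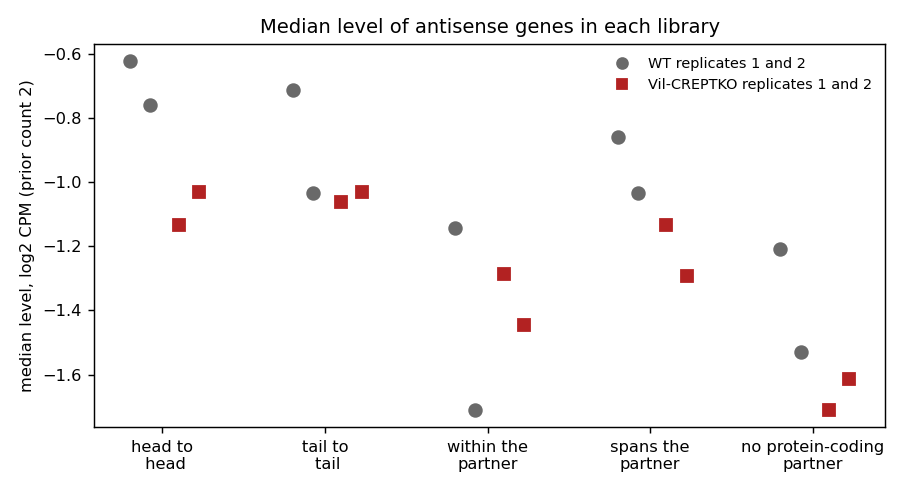
The median level of the antisense genes of each arrangement (vertical axis, log2 CPM with a prior count of 2) is drawn for each library, with WT as circles and Vil-CREPTKO as squares. Both WT medians lie above both Vil-CREPTKO medians for the head to head genes (-0.62 and -0.76 against -1.13 and -1.03), the genes that span a partner and those without one, while among the genes within a partner both Vil-CREPTKO medians lie between those of WT.

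Single head to head genes followed the same direction. The CPM of both Vil-CREPTKO libraries lay below both WT libraries in 75 of the 183 genes and above both in 15. Over all genes tested this was so for 24.2% and 21.0%. Among the 145 head to head genes that passed the filter on low counts, 62 were lower and 11 higher without overlap, and at an unadjusted p below 0.05 in edgeR's quasi-likelihood test 26 were lower and 2 higher, where 9.76% and 4.49% of all genes tested were lower and higher. Among the 350 genes within a partner, 73 were lower and 71 higher without overlap, and among the 159 tail to tail genes 44 and 16. Among the 52 genes without a protein-coding partner, 22 were lower (42.3%, against 41.0% of head to head genes) and 5 higher. The excess of lower genes was thus not particular to the head to head genes.

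The median log2 ratio of the head to head genes was -0.25 to -0.38 with any 1 library left out, and -0.28 when every library was corrected for GC content and transcript length. By the number of counts of a gene, the median was -0.33 for the 53 genes with at least 20 and under 50 counts, -0.33 for the 34 with at least 50 and under 100, -0.40 for the 40 with at least 100 and under 200, -0.38 for the 37 with at least 200 and under 500 and -0.30 for the 19 with 500 or more. The first of these was -0.087 without WT replicate 1. GC content moved with the log2 fold change across genes (Spearman's rho -0.13 over 17123 genes and -0.16 over 591 antisense genes, as descriptions). Head to head genes had a median GC content of 52.0%, against 49.4% over all genes tested. Split at that value, the median was -0.41 for the 119 head to head genes at or above it and -0.23 for the 64 below it. For genes within a partner it was -0.097 (178 genes) and 0.093 (172 genes). Without WT replicate 1 these medians, in the same order, were -0.36, -0.11, 0.035 and 0.34. Without WT replicate 2 they were -0.37, -0.44, -0.38 and -0.13. The median was -0.36 for the 147 head to head genes that share exon bases with the partner and -0.22 for the 36 that do not, and the latter was -0.059 without WT replicate 1 and -0.36 without WT replicate 2.

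Head to head pairs were then ordered by the distance between the starts. With starts less than 500 bases apart, the 47 antisense genes had a median log2 ratio of -0.48, and 36 of them were below 0. The median was -0.38 for 57 genes at 500 to 1000 bases, -0.38 for 30 genes at 1000 to 2000 bases, -0.24 for 21 genes at 2000 to 5000 bases and -0.11 for 28 genes at 5000 bases or more. This order rested on Vil-CREPTKO replicate 1. Without it the 5 medians were -0.34, -0.34, -0.42, -0.35 and -0.30, with no trend. With any 1 library left out, the median ranged from -0.34 to -0.52 for the nearest starts and from -0.024 to -0.30 for the farthest. The partners stayed between -0.055 and -0.0039 in all 5 bins. The 52 antisense genes with no overlapping partner had a median of -0.32, with 35 below 0, which was -0.18 without WT replicate 1 and -0.55 without WT replicate 2. Of these, 28 start within 1000 bases of the start of a protein-coding gene on the opposite strand without overlapping it, with a median of -0.52 and 21 below 0, and the other 24 had -0.22 with 14 below 0.

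**Figure D3:**
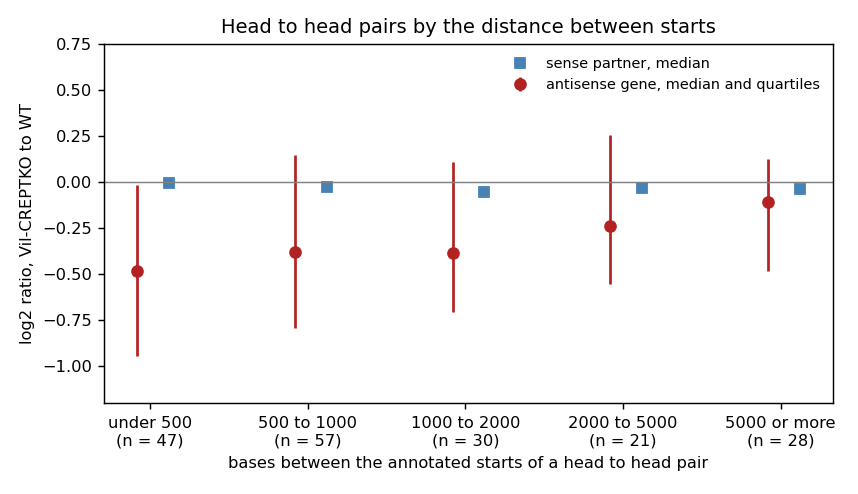
For head to head pairs, the log2 ratio of Vil-CREPTKO to WT (vertical axis) is drawn against the distance in bases between the annotated starts (horizontal axis, 5 bins), as the median with quartiles for the antisense genes (red) and the median for the partners (blue). The antisense medians run from -0.48 under 500 bases to -0.11 at 5000 bases or more, but from -0.34 to -0.30 without Vil-CREPTKO replicate 1, and the partner medians stay within 0.055 of 0.

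Genes were called when the adjusted p of edgeR's quasi-likelihood test was under 0.05, over all 17504 genes tested, and the absolute log2 fold change was over 1. Of the 773 antisense genes, 591 had enough counts to be tested. 1 of them was called lower, where 1.34% of all genes tested were, and 0 were called higher, where 0.297% were. At an adjusted p under 0.05 alone, 3 antisense genes were lower (2.29% of all genes tested) and 0 were higher (0.423%). At an unadjusted p under 0.05, 56 were lower (9.48%, against 9.76% of all genes tested) and 13 higher (2.20%, against 4.49%). DESeq2 called 7 lower and 0 higher, of 394 calls over 28324 genes. Of the 663 partners tested, 6 were called lower and 1 higher.

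The antisense gene called lower was Grin1os (ENSMUSG00000085830, chromosome 2, 25291220 to 25298925, plus strand), which lies within Grin1, the gene for an obligate subunit of the NMDA glutamate receptor. It had 51 and 40 counts in WT, against 2 and 0 in Vil-CREPTKO. The libraries of the groups were far apart, and summed over the libraries WT was 42.0-fold higher, with a 95% counting interval of 11.3 to 352 (exact, Clopper-Pearson, counting error only). The log2 fold change was -5.22 (SE 0.925, adjusted p 0.0242 by edgeR). Its size depends on the prior count because the Vil-CREPTKO counts are at or under 3. Grin1os passed the count minimum and the filter on low counts through WT alone, which favours such a separation. Grin1 itself had 144 and 72 counts in WT, against 14 and 30 in Vil-CREPTKO, again without overlap, and a log2 fold change of -2.18 (SE 0.506, adjusted p 0.0657 by edgeR). Of the exon bases of Grin1os, 1307 (45.2%) are also exon bases of Grin1, so the 2 genes may share reads over that stretch, depending on the strand setting.

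The other antisense genes with an adjusted p under 0.05 were both head to head and among the 10 most abundant. Tug1 (ENSMUSG00000056579, chromosome 11, 3639785 to 3649673, minus strand), a conserved nuclear and cytoplasmic long noncoding RNA, shares its promoter region with Morc2a, which encodes a chromatin ATPase of gene silencing. Tug1 was at 105 and 108 CPM in WT compared with 64.0 and 61.7 in Vil-CREPTKO, with both Vil-CREPTKO libraries well below both WT libraries. Mean levels were 107 ± 1.92 and 62.9 ± 1.60 CPM (SD, n = 2 each), a log2 fold change of -0.76 (SE 0.113, adjusted p 0.0116 by edgeR). Morc2a was at 38.5 and 35.2 CPM in WT compared with 26.7 and 30.0 in Vil-CREPTKO, which did not overlap either, with a log2 fold change of -0.38 (SE 0.132, adjusted p 0.218 by edgeR). In GENCODE the starts of the pair lie 482 bases apart, and 4.96% of the Tug1 exon bases are shared with Morc2a. The RefSeq start of Tug1 lies 859 bases further along Tug1, and from it Tug1 would not overlap Morc2a.

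0610005C13Rik (ENSMUSG00000109644, chromosome 7, 45567794 to 45575327, minus strand) overlaps the start of Bcat2, the mitochondrial branched-chain aminotransferase. The antisense gene was at 44.7 and 42.9 CPM in WT compared with 28.0 and 18.4 in Vil-CREPTKO, with a log2 fold change of -0.92 (SE 0.191, adjusted p 0.0447 by edgeR). Bcat2 was at 26.1 and 23.4 CPM in WT compared with 26.3 and 29.7 in Vil-CREPTKO, with a log2 fold change of 0.18 (SE 0.141, adjusted p 0.643 by edgeR). The antisense gene passed the threshold narrowly, and its adjusted p was 0.0567 with RLE scaling and 0.0582 after the GC and length correction. Bcat2 did not pass the test.

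The deleted gene has an antisense gene of its own. Rprd1b fell from 3087 and 3030 counts in WT to 1142 and 1424 counts in Vil-CREPTKO (log2 fold change -1.14, SE 0.122, adjusted p 0.0041 by edgeR), as the labels imply. 2010009K17Rik (ENSMUSG00000100860, chromosome 2, 158070367 to 158091797, minus strand) was scarce, with 20 and 12 counts in WT, against 1 and 0 in Vil-CREPTKO. Its groups did not overlap, and summed over the libraries WT was 29.5-fold higher, with a 95% counting interval of 4.93 to 1203 (counting error only). 2010009K17Rik passed the count minimum and the filter on low counts through WT alone, which favours such a separation. The log2 fold change of -4.57 (SE 1.16) had an edgeR adjusted p of 0.0893 and was not called, and its size depends on the prior count. The gene has 4 exons, and its 4th exon (158070367 to 158070635) lies in the intron between exons 6 and 7 of the principal Rprd1b transcript. It lies wholly within Rprd1b because 1 annotated Rprd1b transcript runs to 158132297, while the principal transcript ends at 158078207. The floxed exon 3 (158043406 to 158043539) is 26828 bases away from it, so the deleted stretch holds none of its exons. Stretches of 55 and 75 of its 567 exon bases are also exon bases of other Rprd1b transcripts, and over them the 2 genes may share reads. The start window printed above lies outside the principal Rprd1b transcript and had 4 CG.

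**Figure D4:**
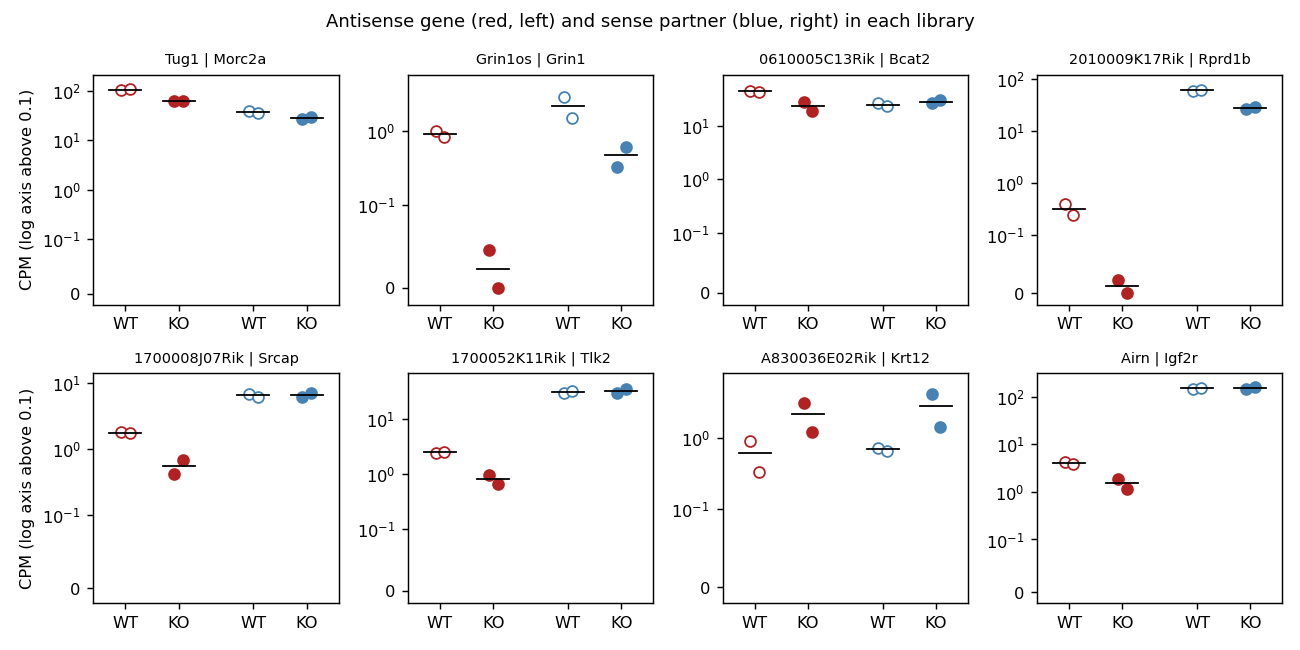
The level in each library (vertical axis, CPM, log axis above 0.1 and linear below) is drawn for 8 pairs, with the antisense gene in red on the left and the sense partner in blue on the right of each panel, WT as open and Vil-CREPTKO (KO) as filled circles, and a line at each mean. In 7 of the 8 pairs both Vil-CREPTKO libraries of the antisense gene lie below both WT libraries, and in A830036E02Rik both lie above. The pairs were picked by a low adjusted p, by separation of the groups, or as the pair of Rprd1b. For most pairs this separation was therefore part of the choice and is not a result. Over all genes tested, 24.2% were lower and 21.0% higher without overlap. The partners of Airn, 1700052K11Rik and 1700008J07Rik overlap between the groups.

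Of the antisense genes whose average log2 CPM was 0 or more and whose groups did not overlap, the 5 largest decreases were in Gm15533, Gm2415, 1700008J07Rik, 1700052K11Rik and Airn, and 4 of these are head to head. Their adjusted p was 0.0601 to 0.124, so 0 of them passed the threshold. All but 1700008J07Rik were called lower with DESeq2. Airn (ENSMUSG00000078247, chromosome 17, 12741311 to 12860136, plus strand) is the imprinted RNA that silences Igf2r, a receptor gene, on the paternal allele. It had 221 and 188 counts in WT, against 81 and 57 in Vil-CREPTKO, with a log2 fold change of -1.43 (SE 0.326, adjusted p 0.0625 by edgeR). Igf2r was at 145 and 154 CPM in WT compared with 148 and 159 in Vil-CREPTKO, with a log2 fold change of 0.039 (SE 0.13, adjusted p 0.936 by edgeR). Airn and Igf2r share no exon bases.

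1700052K11Rik starts within Tlk2, which encodes a kinase of chromatin assembly. It had 125 and 126 counts in WT, against 42 and 32 in Vil-CREPTKO (log2 fold change -1.63, SE 0.372, adjusted p 0.0625 by edgeR), while Tlk2 had a log2 fold change of 0.045 (adjusted p 0.929). 1700008J07Rik is head to head with Srcap, which encodes an ATPase that exchanges histones. It had 92 and 85 counts in WT, against 18 and 33 in Vil-CREPTKO (-1.69, SE 0.43, adjusted p 0.0893), while Srcap had 0.036 (adjusted p 0.965). Separation of the antisense gene was part of the choice of these genes, and the partners overlapped between the groups. Gm2415, at the far end of the integrin gene Itga9 and sharing no exon bases with it, had 183 and 162 counts in WT, against 57 and 27 in Vil-CREPTKO (-1.89, SE 0.427, adjusted p 0.0601). Gm15533 had 111 and 60 counts in WT, against 10 and 30 in Vil-CREPTKO (-1.99, SE 0.562, adjusted p 0.124).

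The 5 largest increases had adjusted p-values of 0.195 to 0.452, so 0 of them passed either. A830036E02Rik, head to head with the keratin gene Krt12, had 46 and 16 counts in WT, against 135 and 60 in Vil-CREPTKO (1.81, SE 0.604, adjusted p 0.195). Krt12 had 37 and 32 counts in WT, against 181 and 70 in Vil-CREPTKO (2.02, SE 0.524, adjusted p 0.0967), so both genes of the pair were highest in Vil-CREPTKO replicate 1. A830036E02Rik was called higher with the replicate block (1.84, edgeR adjusted p 0.0489), with no filter (0.00358), without WT replicate 1 (0.0314) or Vil-CREPTKO replicate 2 (0.0378), and its log2 fold change was 0.99 (adjusted p 0.663) without Vil-CREPTKO replicate 1. The pair shares 1007 exon bases. The others, 4930422I22Rik, Gm10791, Gm12977 and Gm12352, had log2 fold changes of 0.88 to 1.02.

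Partners that passed the test were read next with their antisense genes. The 6 partners called lower were Rprd1b, Slc25a10 (the mitochondrial dicarboxylate carrier), Knstrn (a spindle protein), Tmem86b (a lysoplasmalogenase), Comtd1 and Trim72 (a membrane repair protein), and Pnpla1, a lipid enzyme of the skin barrier, was called higher. Slc25a10 changed most, from 152 and 170 CPM in WT to 50.4 and 39.1 CPM in Vil-CREPTKO (-1.85, SE 0.155, adjusted p 0.00144 by edgeR). Its head to head antisense gene Gm11788 had 11 and 0 counts in WT, against 4 and 7 in Vil-CREPTKO, too few to be tested. Knstrn fell from 40.9 and 42.4 CPM to 14.6 and 20.1 CPM (-1.27, SE 0.17, adjusted p 0.00786), and Gm14091 within it had 34 and 17 counts in WT, against 9 and 12 in Vil-CREPTKO (-1.15, SE 0.65, adjusted p 0.488). Both genes of that pair had lower values without overlap, and only Knstrn of the 2 passed the test.

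Trim72 had 542 and 342 counts in WT, against 164 and 142 in Vil-CREPTKO (-1.40, SE 0.273, adjusted p 0.0341), with its head to head gene Gm15533 lower as given above. This call for Trim72 was lost without WT replicate 1 (adjusted p 0.0868) or Vil-CREPTKO replicate 2 (0.0517). Tmem86b changed by -1.46 (adjusted p 0.0197 by edgeR) and Gm44877 at its end by -0.997 (adjusted p 0.51). Of the antisense exon bases, 165 (60.2%) of Gm44877, 617 (18.7%) of Gm15533 and 123 (14.1%) of Gm14091 are also exon bases of the partner. Pnpla1os, described below, shares 644 (14.7%) with Pnpla1. Over these stretches the 2 genes of a pair may share reads, depending on the strand setting. Comtd1 had 295 and 319 counts in WT, against 102 and 132 in Vil-CREPTKO (-1.28, SE 0.244, adjusted p 0.0313), and the call was lost without WT replicate 2 (0.0778) or Vil-CREPTKO replicate 1 (0.0665), and with the GC and length correction (0.0519). Its head to head gene A430057M04Rik had 50 and 38 counts in WT, against 52 and 43 in Vil-CREPTKO, which overlapped (0.24, SE 0.436, adjusted p 0.873). Pnpla1 rose from 125 and 104 counts to 236 and 356 counts (1.47, SE 0.264, adjusted p 0.0251), a call lost without Vil-CREPTKO replicate 2 (0.0581), and Pnpla1os at its start had 124 and 68 counts in WT, against 112 and 187 in Vil-CREPTKO (0.74, SE 0.37, adjusted p 0.42).

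Over the 720 pairs, the log2 ratios of the antisense gene and its partner had a Pearson r of 0.24 and a Spearman's rho of 0.21, as descriptions across pairs that share their libraries. The r was 0.25 over the 228 pairs with no shared exon bases, 0.19 over the 319 with under 25% of the antisense exon bases shared, 0.38 over the 125 with 25% to 50% and 0.11 over the 48 with 50% or more, so it did not rise steadily with the share of bases. By arrangement it was 0.16 for head to head pairs, 0.26 for tail to tail pairs, 0.30 for genes within a partner and 0.22 for genes that span one. The r moved with the count minimum and was 0.32 at 50 or more counts.

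**Figure D5:**
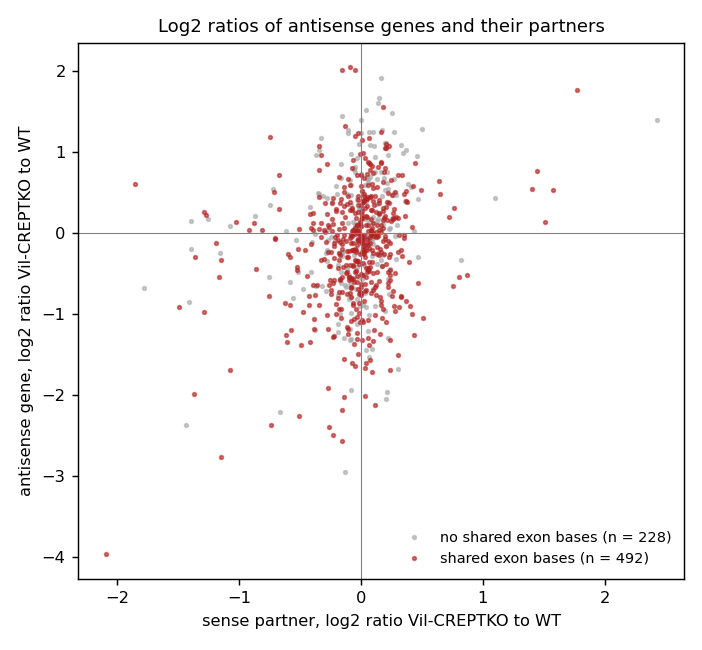
The log2 ratio of Vil-CREPTKO to WT of each antisense gene (vertical axis) is drawn against that of its sense partner (horizontal axis) for 720 pairs, with pairs that share exon bases in red (492) and those that share none in grey (228). The points spread more along the vertical than the horizontal axis, with a Pearson r of 0.24, and Grin1os with Grin1 is the point farthest down.

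Antisense genes of the intestinal transcription factors in the list (4 genes, 4 partners) all had a log2 ratio below 0, with a median of -0.38, and their partners had a median of -0.13. With TMM scaling 2 of the 4 had an unadjusted p under 0.05, both lower (9.76% of all genes tested were lower), 0 had an adjusted p under 0.05, and 0 of the 4 partners had an unadjusted p under 0.05. Hnf4aos starts 34912 bases inside the gene of the enterocyte regulator Hnf4a, runs across the Hnf4a start and shares no exon bases with Hnf4a. Hnf4aos had 138 and 132 counts in WT, against 68 and 72 in Vil-CREPTKO, with no overlap (-0.83, SE 0.309, adjusted p 0.252 by edgeR). Hnf4a was at 817 and 918 CPM in WT compared with 762 and 856 in Vil-CREPTKO (-0.10, adjusted p 0.873). Plut, head to head with the duodenal regulator Pdx1, was at 9.13 and 14.5 CPM in WT compared with 7.50 and 8.57 in Vil-CREPTKO (-0.56, SE 0.239, adjusted p 0.339). 6430503K07Rik at Nkx2-2 had a log2 fold change of -0.25 and Gm26642 at Elf3 had -0.057, and the sign of Gm26642 turned under alternatives given in the closing section.

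The other lists held 2 to 87 antisense genes, and their median log2 ratios lay on both sides of 0. Of 87 antisense genes named for an opposite strand (symbols ending in os or ot with or without a number), 66 were tested, and 6 were lower and 1 higher at an unadjusted p under 0.05, where 9.76% and 4.49% of all genes tested were. Their median log2 ratio was -0.22 and that of their 69 partners -0.040. The 2 imprinted antisense genes went apart: Airn fell short of the threshold as given above, and Kcnq1ot1, which silences a cluster around Kcnq1, had 212 and 125 counts in WT, against 139 and 303 in Vil-CREPTKO, which overlapped (0.49, SE 0.37, adjusted p 0.632). Of the 2 antisense genes of Hox clusters, Hotairm1 had 3 and 11 counts in WT, against 13 and 13 in Vil-CREPTKO (0.99, SE 0.819, adjusted p 0.663), and Hoxb3os had too few counts to be tested. By the family of the partner, median log2 ratios of the antisense genes were -0.30 for zinc finger genes (18), 0.063 for transporters (16), -0.36 for small GTPases (5), 0.055 for mitochondrial genes (10), 0.16 for cell cycle genes (6), -0.16 for ubiquitin genes (16) and -0.30 for genes of the transcription machinery (6). The last list includes 2010009K17Rik through Rprd1b itself.

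The remaining genes among the 10 most abundant did not pass the test. 4933431E20Rik, at the end of the epithelial gene Eps8l3, was at 40.8 and 25.7 CPM in WT compared with 41.7 and 23.8 in Vil-CREPTKO, so that replicate 1 exceeded replicate 2 in both groups (log2 fold change -0.022, SE 0.28, adjusted p 0.987). Gt(ROSA)26Sor, the locus widely used for transgenes, was at 26.5 and 23.2 CPM in WT compared with 22.1 and 23.8 in Vil-CREPTKO (-0.12, SE 0.143, adjusted p 0.79). Slc13a2os, at the end of the dicarboxylate transporter gene Slc13a2, was at 12.3 and 9.33 CPM in WT compared with 25.7 and 8.66 in Vil-CREPTKO, and Slc13a2 was at 123 and 124 CPM in WT compared with 304 and 124 in Vil-CREPTKO. Both genes of this pair were high in Vil-CREPTKO replicate 1 alone. Without Vil-CREPTKO replicate 2 the log2 fold change of Slc13a2os was 1.25 and called (edgeR adjusted p 0.00577), and without replicate 1 it was -0.32. Brip1os, Rab10os, Gm4673 and 1600020E01Rik had log2 fold changes of -0.31, -0.35, -0.10 and 0.27, with adjusted p-values of 0.371 to 0.838.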

How the data were processed

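The authors deposited 1 table of whole-number read counts per gene, with a column per library and no pooling. Per the study's methods and the submitters' processing notes, reads were mapped with Bowtie2 to transcripts of GRCm38.p6 and quantified with RSEM. Versions, annotation and strand setting are not given in the sources used here, and neither is how reads shared by overlapping genes were divided. The sequencer is given differently by the labels and the methods. Groups came from the sample titles. Of 53845 rows, 53360 matched GENCODE M21, which gave biotypes, coordinates, exons and GC content, and 380 were unnamed loci.

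Counts were fitted in R 4.3.3 with edgeR 4.0.16 (filterByExpr, TMM, glmQLFit and glmQLFTest, group as the sole term, two-sided), with Benjamini-Hochberg adjustment over 17504 genes. The thresholds (adjusted p under 0.05, absolute log2 fold change over 1) are those of the study. A standard error is the fold change divided by the square root of F. The log2 ratio used a prior count of 2. The fit was checked on simulated data. Alternatives were DESeq2 1.42.0, RLE and library-size scaling, other filters and minimums, another choice of partner, a replicate term, each library left out, and, added after seeing the data, a GC and length correction (loess, span 0.5) and all alternatives for the head to head median.

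Named were called antisense genes, those with a called partner (at most 10), the 10 most abundant, the 5 largest changes each way without overlap among genes with an average log2 CPM of 0 or more, and members of the imprinted, Hox and intestinal factor lists. 1 partner of the last list and its antisense genes are not reported here. Members, lists and this rule were chosen with earlier results of these data known. Depth was 47241049 to 49369315 counts a library. The coefficient of variation between libraries was 0.188, so counting error mattered for genes of few counts. A count of 0 allows up to 3 counts, or 0.0588 to 0.0690 CPM. Libraries of a group differed by 49.8 (WT) and 70.1 (Vil-CREPTKO) in chi-square per gene, so none was a copy of another.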

Additional observations from a re-analysis of the deposited data

How the results depend on the processing

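With 2 libraries a group, each value can rest on 1 library, and antisense genes had few counts (median 77 over the 4 libraries). Antisense genes called lower numbered 1 with edgeR, 7 with DESeq2, 8 with library-size scaling, 21 with no filter on low counts, 3 with a replicate block, 3 with no fold threshold and 1 to 4 with a library left out. Calls over all genes moved as well, from 287 of 17504 to 394 of 28324 with DESeq2, 447 of 17504 with library-size scaling, 613 of 28324 with no filter, 336 of 17504 with the block and 312 to 429 with a library left out. Grin1os was among those called under every one of these settings but a minimum of 10 counts in every library, which left it out of the test. Antisense genes called higher numbered 0, against 1 with no filter, 1 with the replicate block and 0 to 2 with a library left out. Partners called lower numbered 6, against 11 with DESeq2, 11 with library-size scaling, 12 with no filter, 9 with the replicate block and 8 to 11 with a library left out. Partners called higher numbered 1, against 2 with DESeq2, the GC and length correction, a minimum of 10 counts and the replicate block, 3 with library-size scaling and no filter, and 2 to 4 with a library left out. Over the genes tested, the deviations of same-numbered libraries from their group means had an r of 0.0277. With 2 libraries a group, both pairs give this same value. An r over all genes cannot exclude that the replicate numbers pair libraries, and 4933431E20Rik was higher in replicate 1 of both groups. Rprd1b was called in every alternative.

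The median log2 ratio of all antisense genes was -0.095, and 0.014 to -0.30 with a library left out. For head to head genes it was -0.33, -0.42 with library-size scaling and -0.25 to -0.38 with a library left out. The correlation of pairs was 0.24, 0.21 with a prior count of 0.5, 0.32 at 50 or more counts, and as low as 0.19 without WT replicate 1. Signs turned after the GC and length correction for 4933431E20Rik (0.052), Gm26642 (0.026) and Gm4673 (0.0037). With a library left out they turned for 4933431E20Rik (-0.49 to 0.35), A430057M04Rik (-0.0037 to 0.45), Gm26642 (-0.29 to 0.23), Kcnq1ot1 (-0.061 to 0.88) and Slc13a2os (-0.32 to 1.25). All these genes missed the threshold in the fit reported. The causes were not tested.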
